A study of Mus musculus with 127 samples.

Results

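Synaptic RNA was compared with nuclear RNA in the cortex of 4 wild-type (WT) mice from a conditional Chd8 line. All WT animals of the conditional fraction table that had both a nuclear and a synaptic library were taken, 2 males and 2 females, which gave 8 of the 127 libraries of the series. The series measured poly(A) RNA in whole cortex and cortical fractions of mice with germline or conditional mutation of Chd8, a chromatin remodeller gene associated with autism. By their titles the 4 animals were Camk2a-CRE Chd8+/+: the Camk2a promoter drives Cre recombinase in excitatory neurons of the forebrain, and no floxed allele is named in these animals. Their age was about postnatal day 60 and their material is labelled as mixed cortical cells, so that neurons, glia and vessels could all contribute RNA. Per the protocol, which is worded for the germline line and stands with these samples too, Syn-PER reagent gave a synaptosome fraction from frozen cortex. The remaining flowthrough was treated with NE-PER reagent to give the nuclear fraction. Animal numbers in the library names join the 2 libraries of an animal, and the titles call the animals biological replicates.

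The other groups serve only to place these 4 pairs. Mutants of the conditional line were Camk2a-CRE Chd8+/flox (HET, 5 pairs) and Camk2a-CRE Chd8flox/flox (HOM, 3 pairs). WT animals of the germline line (7 pairs, 5 female and 2 male, the same age, with no Cre transgene named) were littermates of mice with a 5 bp deletion in 1 Chd8 allele (Chd8+/5bpdel). Conditional fractions were sequenced on an Element AVITI and germline fractions on an Illumina NovaSeq, so that line and instrument cannot be told apart.

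A synaptosome is a nerve ending that pinches off and reseals during homogenisation, often with the attached postsynaptic membrane, and it encloses cytosol, vesicles and mitochondria. Its RNA has left the nucleus and includes mRNAs carried into dendrites and axons, while membrane pieces of glia and myelin sediment with it. Nuclei hold newly made transcripts, transcripts that still carry introns, and noncoding RNAs that act on chromatin or in nuclear bodies. Both libraries were poly(A) selected, so a ratio between them compares polyadenylated transcripts of a gene, including any that keep introns. It is relative to the other genes of each library. In such bulk fractions, fewer cells of a type and less RNA per cell cannot be told apart.

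The 8 libraries held 24.7 to 41.3 M gene counts. Levels are given as scaled CPM, counts per mega count after the trimmed mean (TMM) scaling of edgeR, in the order male 1, male 2, female 1 and female 2. Chd8, the gene targeted in the mutants, stood at 83.8, 88.7, 80.2 and 104 scaled CPM in the nuclear libraries and 63.5, 70.4, 80.7 and 78.5 in the synaptic libraries, which overlapped (log2 fold change −0.28 ± 0.0940 (SE), adjusted p = 0.0157); an antisense gene overlaps it, and it missed the threshold without male 1, male 2 or female 2 (adjusted p = 0.0852, 0.0672 and 0.0852). In CPM of total counts, nuclear Chd8 was 93.9 to 126 in WT, 89.6 to 104 in HET and 51.5 to 95.5 in HOM, and 1 HET animal held 0 Cre reads in both libraries whereas each WT library held at least 68. The male-specific gene Ddx3y was at 0 in all female WT libraries and at 56.0 to 104 CPM of total counts in the male ones, as the labels give.

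The filter on low counts kept 18715 of 54838 genes. With animal as a block, 5966 (31.9%) were higher in the synaptic fraction and 6558 (35.0%) higher in the nuclear fraction at an edgeR adjusted p under 0.05, together 66.9%. The sign was the same in 4 of 4 animals for 12094 of the 12524 called genes. The 4 libraries of each fraction did not overlap for 5358 genes on the synaptic (28.6%) and 6006 on the nuclear side (32.1%). The nuclear side reached farther: 4286 called genes were at least 2-fold higher in nuclei and 912 at least 8-fold, against 1724 and 1 in synaptosomes. That 1 gene, F9, which encodes a clotting factor, was barely detected (0.0934 and 0.730 scaled CPM) and was picked out after its values were seen. The median log2 fold change of all genes was −0.06. Scaling by total counts alone moved it to −0.59 and the split to 2453 synaptic against 10511 nuclear calls, so every direction below is relative to the other genes of a library. Since 66.9% of all genes were called, a count of list members is given beside its median and read against those shares.

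**Figure D1:**
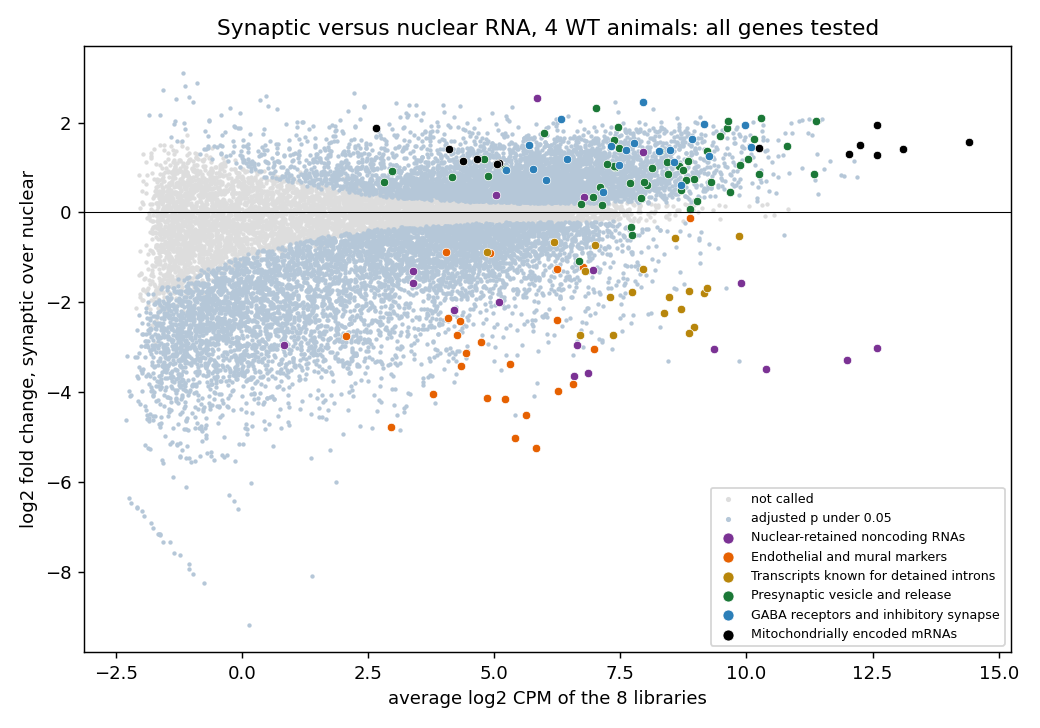
Average log2 CPM of the 8 libraries (x axis) against the log2 fold change, synaptic over nuclear (y axis), for the 18715 genes tested; grey points were not called and pale blue points passed an adjusted p of 0.05, and 6 gene lists are coloured. Most noncoding RNAs of the nuclear-retained list, all transcripts known for detained introns and nearly all endothelial and mural markers lie below 0, while mitochondrial mRNAs and inhibitory synapse genes lie above it.

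Long noncoding RNAs known from nuclei were mostly on the nuclear side. Of 18 such RNAs on a list, 14 were higher in the nuclear and 4 in the synaptic fraction, with a median log2 fold change of −2.07. Their summed level was 25146, 25838, 18281 and 28846 scaled CPM in the nuclear libraries and 3455, 2525, 4229 and 4899 in the synaptic libraries. As a share of all reads they made up 2.95% ± 0.580 of the nuclear and 0.314% ± 0.0865 of the synaptic libraries (SD, n = 4; exact two-sided sign-flip test, p = 1 in 8, the smallest that 4 pairs allow).

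Malat1 (GRCm38, chromosome 19, 5795690 to 5802672, minus strand), which gathers at nuclear speckles, had 3568, 1271, 745 and 4354 scaled CPM in the nuclear libraries and 223, 77.05, 160.0 and 367 in the synaptic libraries. The lowest nuclear library, that of female 1, still held more than the highest synaptic library, and the pair of female 1 showed the smallest difference (log2 fold change −3.47 ± 0.240 (SE), adjusted p = 1.44e-08). Meg3 (chromosome 12, 109541001 to 109571726, plus strand), a maternally expressed imprinted RNA, had 10638, 12989, 9103 and 10953 scaled CPM in the nuclear libraries and 1259, 836, 1605 and 1877 in the synaptic libraries. It was among the RNAs with the most reads in the nuclear libraries, and no library of 1 fraction overlapped the other (log2 fold change −3.02 ± 0.200 (SE), adjusted p = 1.01e-08). Snhg11 (chromosome 2, 158375638 to 158386145, plus strand), a neuronal snoRNA host, had 7259, 7475, 5405 and 9376 scaled CPM in the nuclear libraries and 739, 435.02, 967 and 976 in the synaptic libraries, again with no overlap (log2 fold change −3.29 ± 0.198 (SE), adjusted p = 4.55e-09). Neat1 (chromosome 19, 5824708 to 5845478, minus strand), the scaffold of paraspeckles, had 237, 349, 102 and 173 scaled CPM in the nuclear libraries and 11.9, 17.5, 23.2 and 15.3 in the synaptic libraries, and both male nuclear libraries stood above both female ones (log2 fold change −3.58 ± 0.277 (SE), adjusted p = 4.36e-08). Annotated genes overlap an exon of each of these 4, and the sources used here do not give the strand setting, so that their counts can include reads of a neighbour.

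The other nuclear members were Ftx (−3.64) and Jpx (−1.56), which neighbour Xist on the X chromosome, Miat (−3.05), Rmst (−2.95), Firre (−2.95), Mirg (−2.16), Kcnq1ot1 (−1.99), Rian (−1.57), Snhg14 (−1.28) and Gm26917 (−1.31), in log2 fold change. Their adjusted p reached 0.0314, the value of Gm26917, whose libraries overlapped between fractions as did those of Kcnq1ot1. Gm26917 lost its call without male 1, male 2 or female 2 (adjusted p = 0.224, 0.134 and 0.0996) and with DESeq2 (adjusted p = 0.114), and its value was 0.039 in the female pairs alone. Meg3, Rian and Mirg are transcribed from 1 imprinted domain, and they fell together.

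Xist, Peg13, Pantr1 and Tug1 of the same list were higher in the synaptic fraction. Peg13 (chromosome 15, 72805600 to 72810324, minus strand), a paternally expressed RNA, had 141, 120.3, 169.6 and 132 scaled CPM in the nuclear libraries and 364, 359, 337 and 364 in the synaptic libraries (log2 fold change 1.35 ± 0.103 (SE), adjusted p = 3.88e-08). Tug1 (0.35, adjusted p = 0.0033) and Pantr1 (0.39, adjusted p = 0.00409) were smaller differences that turned under total counts (−0.18 and −0.14). Xist (chromosome X, 103460366 to 103483254, minus strand), the RNA that coats the inactive X chromosome of females, was at or near background in the males. It had 0.115, 0.0469, 17.2 and 59.1 scaled CPM in the nuclear libraries and 0.178, 0.413, 169 and 218 in the synaptic libraries (log2 fold change 2.55 ± 0.244 (SE), adjusted p = 3.81e-07; 2.58 in the 2 female pairs alone). In both females the synaptic library was above the nuclear one (142 against 20.1 and 182 against 71.9 CPM of total counts). So it was in the mutant female pairs of the conditional line (94.6 against 42.9, 46.9 against 13.1 and 47.8 against 10.1), except for a HET animal at 32.1 against 72.7. The annotation places 5 other genes over Xist exons, 2 on its strand and 3 on the other, and their part in this value was not tested. Germline WT females ran the other way: in CPM of total counts their 5 nuclear libraries held 382.7, 304.8, 268.4, 256.8 and 190.7, and the synaptic libraries of the same animals 65.9, 44.5, 70.5, 18.7 and 139.6.

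**Figure D2:**
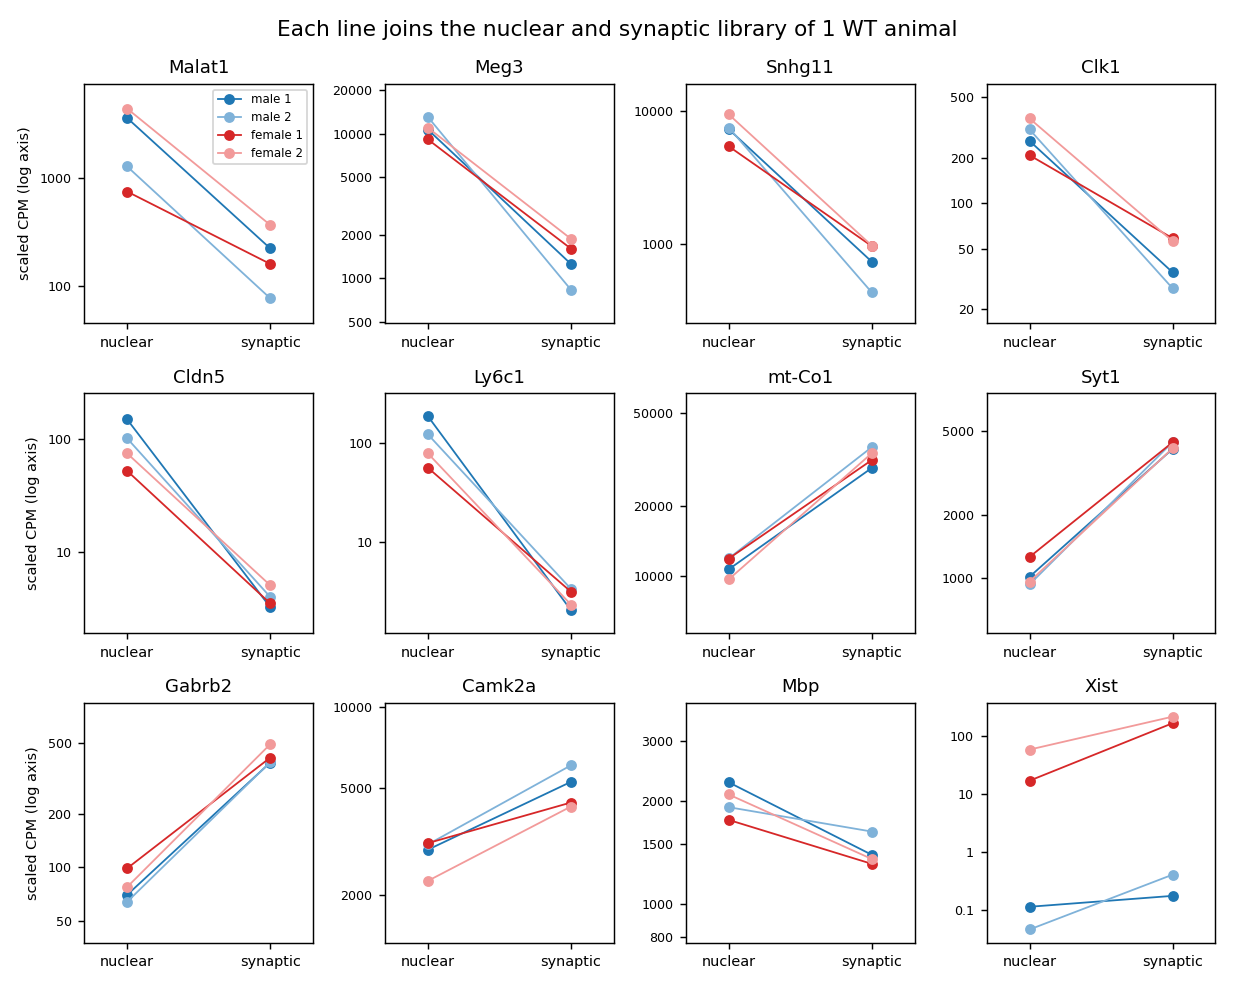
Scaled CPM on a log axis (y) in the nuclear and synaptic library (x) of each of the 4 animals, for 12 genes; a line joins the 2 libraries of 1 animal, males in blue and females in red. Malat1, Meg3, Snhg11, Clk1, Cldn5, Ly6c1 and Mbp fall in all 4 animals, mt-Co1, Syt1, Gabrb2 and Camk2a rise in all 4, and Xist is high only in the 2 females.

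RNAs that are processed into microRNAs made up part of the nuclear noncoding set. Long noncoding genes that contain a RefSeq microRNA hairpin on their own strand, a rule chosen after values were seen, numbered 45 among the tested genes. Their hairpins summed to 87 over hosts. Some hosts overlap, and a hairpin inside overlapping hosts was counted once for each, as Mir100 was. Of these, 35 were higher in the nuclear fraction and 0 in the synaptic fraction, with a median log2 fold change of −2.22 (range −4.06 to 1.28). Among all 2138 long noncoding genes tested, 1200 were nuclear and 67 synaptic, with a median of −1.36. The counts measure the polyadenylated host RNA and not the mature microRNA. The mature microRNAs of hosts described here are shown to identify them, 5′ to 3′ from RefSeq (GRCm38.p6), with the seed (bases 2 to 8) in capitals.
miR-29b-3p: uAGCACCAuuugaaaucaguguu
miR-29c-3p: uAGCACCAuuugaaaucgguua
miR-9-5p: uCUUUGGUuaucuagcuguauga
miR-100-5p: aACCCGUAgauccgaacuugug
miR-99a-5p: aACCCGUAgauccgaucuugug
miR-138-5p: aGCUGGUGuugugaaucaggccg
miR-137-3p: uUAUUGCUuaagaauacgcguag
miR-132-3p: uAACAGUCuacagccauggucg
miR-134-5p: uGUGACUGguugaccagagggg

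A330023F24Rik, which holds miR-29b-3p and miR-29c-3p with their shared seed (chromosome 1, 195037091 to 195037113 and chromosome 1, 195037600 to 195037621), had 185, 147, 109 and 234 scaled CPM in the nuclear libraries and 19.9996, 9.76, 18.96 and 27.9 in the synaptic libraries (log2 fold change −3.17 ± 0.165 (SE), adjusted p = 1.87e-09). Female 2 was highest in both fractions, and the fractions did not overlap. The 3 hosts of miR-9-5p, a neural microRNA, were all nuclear: Gm3764 (−2.81; mature sequence at chromosome 3, 88215613 to 88215635), C130071C03Rik (−1.43; chromosome 13, 83738821 to 83738843) and Mir9-3hg (−0.99; chromosome 7, 79505279 to 79505301), with adjusted p up to 9.16e-07. A host of miR-100-5p (3110039I08Rik, −2.86) and one of miR-99a-5p (Mir99ahg, −2.13), whose products also share a seed, were both nuclear. Another annotated gene that holds the Mir100 hairpin was barely detected (means of 0.245 nuclear and 0.595 synaptic scaled CPM). It was not called (log2 fold change 1.28, edgeR adjusted p = 0.0622).

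Hosts of some microRNAs known for roles in synapses were nuclear as well. C78859, host of miR-138-5p (chromosome 8, 94324312 to 94324334), changed by −3.08, Gm26871, host of miR-137-3p (chromosome 3, 118433901 to 118433923), by −2.08, and 1700016P03Rik, host of miR-132-3p (chromosome 11, 75173723 to 75173744), by −2.37. Mirg, which holds 14 hairpins with that of miR-134-5p among them, went from 30.2 ± 8.63 to 6.72 ± 1.86 scaled CPM (SD, n = 4 each). Mir22hg fell least among the named hosts apart from Mir9-3hg (−1.05), and every adjusted p of this group was at most 3.23e-06. Mir124a-1hg, known by its name alone since its hairpin had no match, had 733, 699.8, 469.8 and 640.2 scaled CPM in the nuclear libraries and 75.0, 40.2, 75.2 and 71.6 in the synaptic libraries (log2 fold change −3.30 ± 0.179 (SE), adjusted p = 2.15e-09), and male 2 stood apart as the lowest synaptic library.

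Host RNAs of snoRNAs and cytosolic noncoding RNAs were also on the nuclear side, in 13 of 13 tested members (median −1.45). Snhg4, Snhg7, Snhg16, Norad, Oip5os1 and Cyrano of this list matched no gene symbol and were not tested. Snhg20 (−3.04), Dancr (−3.15) and Snhg17 (−2.47) had the largest log2 fold changes, with adjusted p up to 2.77e-06. By biotype, long noncoding genes had 56.1% nuclear and 3.13% synaptic calls. Protein-coding genes (14947 tested, median 0.10) had 29.8% nuclear and 39.0% synaptic calls.

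Messenger RNAs that keep introns in the nucleus followed the noncoding RNAs. All 19 members of a list of transcripts known for detained introns were nuclear (median −1.77, range −2.72 to −0.52). Clk1 (chromosome 1, 58410189 to 58424066, minus strand), a kinase of splicing factors whose unspliced transcript is stored in nuclei, had 258, 307, 207 and 363 scaled CPM in the nuclear libraries and 34.9, 27.3, 58.6 and 56.0 in the synaptic libraries. Every nuclear library exceeded every synaptic one by a wide margin (log2 fold change −2.72 ± 0.190 (SE), adjusted p = 1.57e-08). Its relative Clk4 (−2.72) and the arginine- and serine-rich gene Rsrp1 (−2.68) changed as much, and the adjusted p of each was at most 1.10e-08.

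Splicing factor mRNAs split in both directions, 53 nuclear and 28 synaptic of 91 tested (median −0.43, with 6 synaptic and 65 nuclear calls under total counts). Pnisr went from 848 ± 167 to 146 ± 36.2 scaled CPM (SD, n = 4 each) (log2 fold change −2.55 ± 0.170 (SE), adjusted p = 1.01e-08), and Prpf39 (−2.39) and Srsf11 (−2.23) fell alike. On the synaptic side stood Prpf8, the central subunit of the spliceosome (110.1 ± 8.503 to 303 ± 28.002 scaled CPM (SD, n = 4 each), log2 fold change 1.46 ± 0.0858 (SE), adjusted p = 3.80e-09), the helicase gene Snrnp200 (1.14) and the neuronal splicing regulator Rbfox1 (0.98), so the list did not move as 1 unit.

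Lists of genes that act in the nucleus differed in direction. Zinc finger genes of the Zfp family were nuclear in 175 and synaptic in 45 of 358 tested members (median −0.41, with 5 synaptic and 277 nuclear calls under total counts); Zfp950 (−2.99) and Zfp57 (−2.67) had large nuclear differences and Zfp804a (1.26) a large synaptic one. Chromatin genes were near the background at 38 nuclear and 29 synaptic of 88 (median −0.09, with 3 synaptic and 65 nuclear calls under total counts). Among them Tet2, which oxidises methylcytosine, had 138, 164, 124 and 174 scaled CPM in the nuclear libraries and 26.7, 23.3, 31.6 and 37.4 in the synaptic libraries, and the histone methyltransferase genes Ezh2 (−1.88) and Dot1l (−1.63) were also nuclear. The remodelling subunits Arid1b (0.79) and Smarca4 (0.74) were synaptic. Immediate early genes were synaptic in 15 and nuclear in 2 of 20 (median 0.53, and −0.0024 under total counts with 5 synaptic and 5 nuclear calls). The zinc finger factors Egr1 (0.88) and Egr4 (0.96) rose, and Npas4 (−0.70, adjusted p = 0.000369) and Nr4a1 (−0.28, adjusted p = 0.0401) fell with overlapping libraries. Nr4a1 missed the threshold without male 1 or female 2 (adjusted p = 0.281 and 0.202) and without the animal block (adjusted p = 0.182).

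Mitochondrially encoded mRNAs rose as a group in the synaptic fraction, 13 of 13 (median 1.41, range 1.07 to 1.95). They took 3.32% ± 0.226 of nuclear and 6.55% ± 0.613 of synaptic reads (SD, n = 4), a log2 difference of 1.51 in scaled levels with an exact two-sided sign-flip p of 1 in 8, the smallest possible. The cytochrome oxidase gene mt-Co1 (mitochondrial genome, 5328 to 6872) had 10692, 11911, 11890.1 and 9681 scaled CPM in the nuclear libraries and 29130.2, 35792, 31496 and 33702 in the synaptic libraries. It took the most reads on average of any gene tested in both fractions, with all synaptic libraries above all nuclear ones (log2 fold change 1.56 ± 0.117 (SE), adjusted p = 3.18e-08). The complex I gene mt-Nd5 had 2087, 2446, 2999 and 2629.9 scaled CPM in the nuclear libraries and 8721, 10994, 8805 and 10474 in the synaptic libraries (log2 fold change 1.95 ± 0.121 (SE), adjusted p = 5.88e-09). It rose most of the 13, followed by mt-Nd4l (1.88), while mt-Cytb (1.41) lay at the median.

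**Figure D3:**
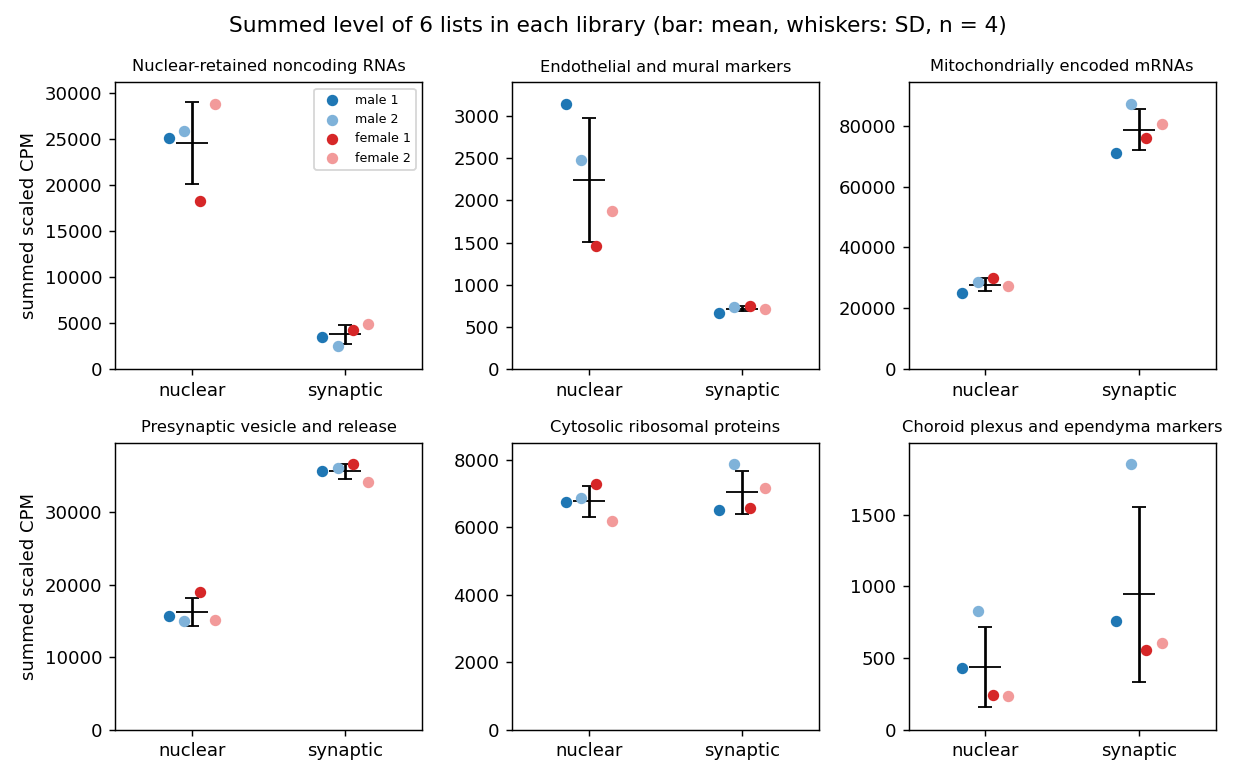
Summed scaled CPM (y axis, from 0) of 6 gene lists in the nuclear and synaptic library (x axis) of each of 4 animals; bars are means and whiskers SD (n = 4), males in blue and females in red. Mitochondrial and presynaptic sums are higher in every synaptic library, nuclear-retained and vessel sums are higher in every nuclear library, ribosomal sums overlap, and choroid plexus sums are highest in male 2 in both fractions.

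Transcripts of the presynaptic terminal rose in 47 and fell in 3 of 53 tested members (median 0.95, with 30 synaptic and 8 nuclear calls under total counts). The calcium sensor gene Syt1 (chromosome 10, 108497650 to 109010982, minus strand) had 1016, 935, 1262 and 964 scaled CPM in the nuclear libraries and 4100.0, 4415, 4404 and 4122 in the synaptic libraries. The synaptic libraries spanned a narrow range and none overlapped the nuclear range (log2 fold change 2.04 ± 0.107 (SE), adjusted p = 1.96e-09). Synaptophysin (Syp), an integral protein of synaptic vesicles, had 452, 439.9, 563 and 435.5 scaled CPM in the nuclear libraries and 1869, 1911, 2286 and 2007 in the synaptic libraries (log2 fold change 2.10 ± 0.0961 (SE), adjusted p = 1.61e-09), and Syt2, the fast calcium sensor of some inhibitory terminals, went from 43.6 ± 6.16 to 217 ± 21.4 scaled CPM (SD, n = 4 each). The members that fell were the priming factor Unc13b (−1.08), Rimbp2 (−0.50) and the membrane-bending gene Bin1 (−0.33), with adjusted p up to 0.00401.

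Receptor mRNAs of both transmitter systems rose. For inhibitory synapses this held for 21 of 21 tested members (median 1.38). Gabrb2 (chromosome 11, 42419757 to 42629028, plus strand), a beta subunit of the GABA-A receptor, had 69.8, 63.8, 98.4 and 77.3 scaled CPM in the nuclear libraries and 386, 388, 412 and 490.0 in the synaptic libraries. All synaptic libraries were far above the nuclear ones, and it was among the largest synaptic differences of any well-detected gene (log2 fold change 2.45 ± 0.109 (SE), adjusted p = 1.61e-09). The vesicular GABA transporter gene Slc32a1 had 31.5, 27.9, 39.2 and 25.8 scaled CPM in the nuclear libraries and 123, 128, 138 and 129 in the synaptic libraries (log2 fold change 2.07 ± 0.101 (SE), adjusted p = 1.61e-09), and the GABA-B receptor subunit gene Gabbr2 changed by 1.96. Glutamate receptor and postsynaptic density genes rose in 47 and fell in 2 of 53 (median 0.91, with 31 synaptic and 7 nuclear calls under total counts). The NMDA receptor subunit gene Grin2b had 474.7, 411, 421 and 449.9 scaled CPM in the nuclear libraries and 1471, 1252, 1217 and 1810.4 in the synaptic libraries (log2 fold change 1.69 ± 0.104 (SE), adjusted p = 5.33e-09). Grm8 (1.83) and the adhesion gene Lrrtm1 (1.72) rose as much, and Homer3 (−0.74) and the kainate receptor subunit gene Grik2 (−0.56) fell.

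Voltage-gated channel mRNAs rose in 48 and fell in 1 of 53 (median 1.16). The sodium channel subunit gene Scn2b had 195, 189, 230.4 and 163 scaled CPM in the nuclear libraries and 641, 672, 756 and 659 in the synaptic libraries (log2 fold change 1.82 ± 0.0938 (SE), adjusted p = 1.80e-09), and the potassium channel gene Kcna1 (1.86) and Scn4b (1.79) rose alike. The calcium channel gene Cacna1d was the member that fell (−0.51, adjusted p = 0.000164). Neuropeptide genes rose in 20 of 21 with a median of 1.79, the highest of the 31 lists, led by the prodynorphin gene Pdyn (2.14) and the secretogranin gene Scg2 (2.10).

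By the rule for the largest well-detected differences, 8 of the 15 genes at the top of the synaptic side were clustered protocadherins, cell adhesion molecules that give neurons distinct surfaces. Pcdhgc5 had 60.9, 50.8, 54.0 and 43.0 scaled CPM in the nuclear libraries and 275, 309.5, 288 and 268 in the synaptic libraries (log2 fold change 2.46 ± 0.101 (SE), adjusted p = 1.61e-09), and Pcdha5 (2.44) and Pcdhac2 (2.35) were close to it. Members of a cluster share their last exons, with 25 annotated genes over exons of Pcdhgc5 and 13 over those of each of the other two, so the split of reads between members is uncertain. Outside the clusters, differences of like size were found for the neurexin-family gene Cntnap2, the exchanger gene Slc9a7 and the dense-core vesicle gene Ptprn2. Cntnap2 had 58.3, 52.1, 71.1 and 64.2 scaled CPM in the nuclear libraries and 282, 274, 297 and 305 in the synaptic libraries (log2 fold change 2.24), Slc9a7 changed by 2.36 and Ptprn2 by 2.29, with adjusted p up to 4.48e-09.

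mRNAs known from dendrites rose in 23 of 24 tested members and fell in 0, by less than the receptor genes (median 0.68, with 8 synaptic and 3 nuclear calls under total counts). Camk2a, whose mRNA is carried to synapses, had 2946, 3082, 3116 and 2256 scaled CPM in the nuclear libraries and 5264, 6063, 4411 and 4262 in the synaptic libraries (log2 fold change 0.81 ± 0.109 (SE), adjusted p = 1.28e-05). The neurotrophin gene Bdnf had 30.8, 26.2, 29.2 and 31.3 scaled CPM in the nuclear libraries and 101, 87.6, 78.9 and 103 in the synaptic libraries (log2 fold change 1.65 ± 0.0929 (SE), adjusted p = 2.69e-09) and was the largest of the list. Itpr1 (1.42), Dlgap3 (1.23), Shank3 (0.99), Ddn (0.92), Arc (0.80), Nrgn (0.67) and the translation factor gene Eef2 (0.62) lay between. Dlg4, the gene of PSD-95 (0.53), Map2 (0.48), Actb (0.36) and Lrrc7 (0.29) had small positive values that turned under total counts (−0.0052, −0.058, −0.17 and −0.25), and Arc, Nrgn and Eef2 missed the threshold there (adjusted p = 0.0666, 0.219 and 0.456). Map2 missed the threshold without female 2 (adjusted p = 0.0699), and Lrrc7 without male 1 or male 2 (adjusted p = 0.252 and 0.0858). Fmr1 was the member without a call: it had 98.1, 109, 107 and 115 scaled CPM in the nuclear libraries and 94.8, 103, 87.6 and 104 in the synaptic libraries, overlapping between fractions (log2 fold change −0.14 ± 0.0852 (SE), adjusted p = 0.158), and under total counts it was called nuclear (−0.68, adjusted p = 7.02e-06).

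**Figure D4:**
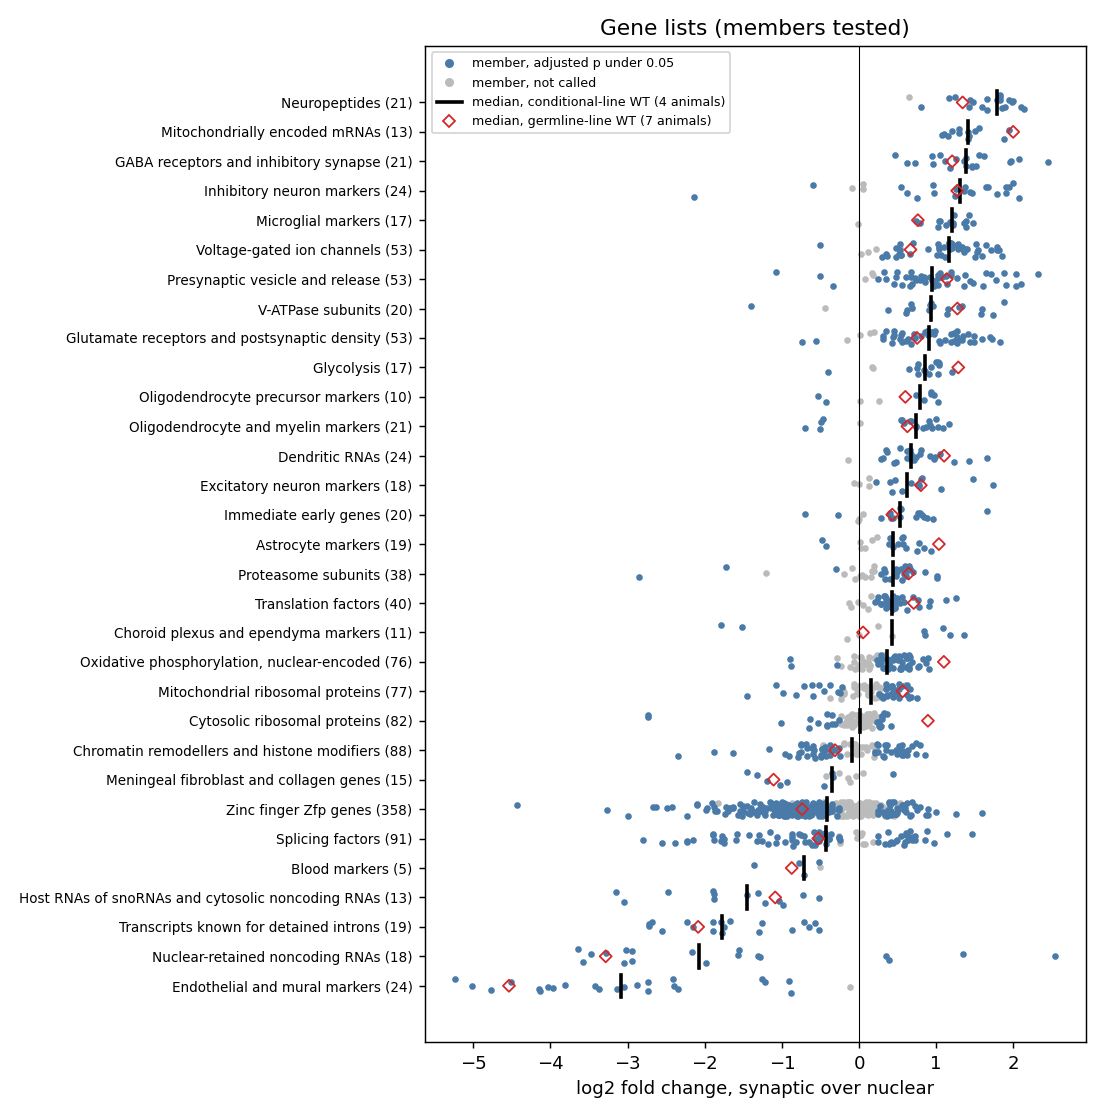
Log2 fold change, synaptic over nuclear (x axis), of the tested members of all 31 gene lists (y axis, number tested in brackets); blue points passed an adjusted p of 0.05, black bars are medians in the 4 conditional-line animals and red diamonds medians in the 7 germline-line WT animals. Neuropeptides, mitochondrial mRNAs and inhibitory synapse genes have the highest medians and endothelial and mural markers the lowest.

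Ribosomal protein mRNAs, which encode proteins of the cytosolic ribosome, did not shift as a group. Of 82 tested, 11 were synaptic and 13 nuclear (median 0.01, and −0.52 under total counts with 0 synaptic and 78 nuclear calls). Their summed level was 6764, 6879.7, 7295 and 6182 scaled CPM in nuclear and 6528, 7869, 6566 and 7179 in synaptic libraries, which overlapped (log2 difference 0.05, exact two-sided sign-flip p = 0.625). That sum turned to −0.48 under total counts and to −0.0031 without female 2. Rps21 had 69.4, 70.1, 72.3 and 61.0 scaled CPM in the nuclear libraries and 49.6, 75.9, 57.2 and 65.8 in the synaptic libraries (log2 fold change −0.15 ± 0.109 (SE), adjusted p = 0.246), with the synaptic library lower in male 1 and female 1 and higher in male 2 and female 2. Among the members with large differences were Rps26 (0.42) and Rps15 (0.32) on the synaptic side, which turned under total counts (−0.12 and −0.22), and Rps10 (−2.73) on the nuclear side. Other genes overlap exons of Rps10, reads from processed copies can be lost or shared in this family, and the libraries of Rps15 overlapped between fractions. Rps15 missed the threshold without male 2 and also without female 2 (adjusted p = 0.0973 in the latter).

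Translation factor mRNAs rose in 34 of 40 and fell in 0 (median 0.43, −0.11 under total counts with 5 synaptic and 10 nuclear calls), with Eif3c (1.26) and the neuronal elongation factor gene Eef1a2 (1.13) among the largest. Nuclear-encoded oxidative phosphorylation genes rose in 47 and fell in 3 of 76 (median 0.37, −0.17 under total counts with 6 synaptic and 31 nuclear calls). Uqcrc2 (0.90) and Ndufa9 (0.89) rose, and Ndufb2 (−0.90) and Atp5l (−0.88), which other genes overlap, fell. Mitochondrial ribosomal protein genes had 28 synaptic calls, near the background, and 13 nuclear ones, below it, of 77 (median 0.16, −0.38 under total counts with 0 synaptic and 43 nuclear calls), and proteasome genes rose in 24 and fell in 3 of 38 (median 0.44, −0.098 under total counts with 3 synaptic and 16 nuclear calls), Psmd2 among them (1.01). Glycolysis genes rose in 14 and fell in 1 of 17 (median 0.86, with 12 synaptic and 3 nuclear calls under total counts): Hk1 (1.21) and Pkm (1.04) rose and Pfkp (−0.40) fell. Subunits of the V-ATPase, the proton pump that fills synaptic vesicles, rose in 17 and fell in 1 of 20 (median 0.93), with Atp6ap2 (1.87) and Atp6v0c (1.74) up and Atp6v0e (−1.40) down.

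Markers of cell types separated the fractions as well. Endothelial and mural genes of blood vessels were nuclear in 23 of 24 members and synaptic in 0, with a median of −3.09, the lowest of the 31 lists. Ly6c1 (chromosome 15, 75044018 to 75048830, minus strand), an endothelial surface gene, had 187, 123, 56.3 and 78.8 scaled CPM in the nuclear libraries and 2.05, 3.36, 3.15 and 2.33 in the synaptic libraries. It was 37.6-fold higher in nuclei, with male 1 highest and female 1 lowest there (log2 fold change −5.23 ± 0.255 (SE), adjusted p = 1.61e-09). The tight junction gene Cldn5 (chromosome 16, 18776847 to 18778262, plus strand) had 149.7, 102, 52.2 and 74.6 scaled CPM in the nuclear libraries and 3.20, 3.95, 3.46 and 5.02 in the synaptic libraries (log2 fold change −4.51 ± 0.217 (SE), adjusted p = 1.61e-09). The angiopoietin receptor gene Tek (−4.14), Pecam1 (−4.15), Ly6a (−5.01), Adgrl4 (−4.51) and the smooth muscle actin gene Acta2 (−4.77) fell as steeply, with adjusted p up to 4.79e-09. Their summed level was 3151, 2478, 1461 and 1879 scaled CPM in nuclear and 669, 731, 748 and 716 in synaptic libraries, so it varied among nuclear libraries and hardly among synaptic ones. Lcn2, a gene of inflamed vessels and glia, had 59.2, 7.92, 0.366 and 0.266 scaled CPM in the nuclear libraries and 1.07, 0.531, 0 and 0.118 in the synaptic libraries, high in the nuclear library of male 1 alone (log2 fold change −4.84 ± 0.435 (SE), adjusted p = 1.99e-07).

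Glial and immune markers went the other way. Microglial genes rose in 16 of 17 and fell in 0 (median 1.20): the receptor gene Csf1r had 79.2, 64.6, 72.4 and 68.6 scaled CPM in the nuclear libraries and 188, 173, 228 and 177 in the synaptic libraries (log2 fold change 1.43 ± 0.0917 (SE), adjusted p = 7.87e-09), and Ctss (1.48) and Tyrobp (1.39) rose alike. Astrocyte genes rose in 12 and fell in 2 of 19 (median 0.44, −0.097 under total counts with 2 synaptic and 7 nuclear calls). Clu (0.93) and the glutamate transporter gene Slc1a3 (0.84) rose, while the intermediate filament gene Gfap went from 151 ± 17.9 to 108 ± 14.2 scaled CPM (SD, n = 4 each) (log2 fold change −0.49 ± 0.0969 (SE), adjusted p = 0.000464). Precursor cell markers rose in 6 and fell in 2 of 10 (median 0.79, with 4 synaptic and 3 nuclear calls under total counts), with Gpr17 at 0.97.

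Oligodendrocyte and myelin genes rose in 16 and fell in 4 of 21 (median 0.73, with 9 synaptic and 5 nuclear calls under total counts). Mag, a myelin adhesion gene, had 112, 96.1, 114 and 113 scaled CPM in the nuclear libraries and 228, 219, 227 and 251 in the synaptic libraries (log2 fold change 1.09 ± 0.0852 (SE), adjusted p = 4.83e-08), and Ugt8a (1.17) and Cnp (1.03) rose by about as much. Myelin basic protein (Mbp), whose mRNA travels into the myelin sheath, had 2267, 1918, 1761 and 2089 scaled CPM in the nuclear libraries and 1393, 1629, 1311 and 1355 in the synaptic libraries. It was lower in every synaptic library than in every nuclear one (log2 fold change −0.50 ± 0.104 (SE), adjusted p = 0.000704), and Mobp (−0.70) and Plekhb1 (−0.50) were lower too.

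Neuronal markers rose in both classes, in 14 of 18 excitatory members with 0 falling (median 0.62, with 7 synaptic and 5 nuclear calls under total counts) and in 19 of 24 inhibitory members with 2 falling (median 1.31). The vesicular glutamate transporter gene Slc17a7 went from 945 ± 132 to 2623 ± 228 scaled CPM (SD, n = 4 each) (log2 fold change 1.48 ± 0.0965 (SE), adjusted p = 8.72e-09). Among inhibitory markers the GABA transporter gene Slc32a1, given above, rose most, followed by the peptide genes Npy (1.99) and Sst (1.94). Adarb2 (−0.60) and the synuclein gene Sncg (−2.14, from 1.17 ± 0.302 to 0.266 ± 0.114 scaled CPM (SD, n = 4 each)) fell. Excitatory, inhibitory, astrocyte, oligodendrocyte and microglial markers were thus all detected, as the label of mixed cortical cells gives, and their part in the synaptic gene groups was not tested.

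Markers of neighbouring tissues were uneven between animals. Choroid plexus and ependyma genes were synaptic in 5 and nuclear in 2 of 11 (median 0.42, −0.11 under total counts with 1 synaptic and 3 nuclear calls). The thyroxine carrier gene Ttr had 161, 419.5, 1.74 and 2.66 scaled CPM in the nuclear libraries and 119, 740.0, 6.85 and 9.92 in the synaptic libraries (log2 fold change 0.84 ± 0.277 (SE), adjusted p = 0.0152), high in the 2 males in both fractions, and it missed the threshold with DESeq2 (adjusted p = 0.0675), without the block (adjusted p = 0.053) and without female 1 or female 2 (adjusted p = 0.0692 and 0.0845). Enpp2, which encodes autotaxin, changed by 1.36. Meningeal genes were nuclear in 8 and synaptic in 1 of 15 (median −0.34, with 0 synaptic and 13 nuclear calls under total counts), Col4a1 at −1.46 among them, and 4 of 5 blood genes were nuclear, with Hbb-bs at −0.72.

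Gene structure was related to the difference only weakly, as a description over 14947 protein-coding genes that are not independent. From the fifth with the shortest to the fifth with the longest 3′ untranslated regions the median log2 fold change went −0.10, 0.06, 0.12, 0.19 and 0.24, and synaptic calls rose from 27.3% to 47.9% (Spearman correlation 0.147). Genes with the longest genomic span were synaptic in 50.1% (correlation over all genes 0.0825) and genes with the fewest exons in 43.6% (correlation −0.0927). Exonic length itself had a correlation of −0.00731. Thus untranslated regions, more than total length, went with the synaptic side in these values.

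The 4 pairs differed in size more than in sign. Log2 fold changes of single pairs correlated at 0.913 to 0.959 across 10609 genes with an average log2 CPM of at least 3. Median changes of nuclear-retained RNAs were −2.21, −2.64, −1.21 and −1.93 in male 1, male 2, female 1 and female 2, and those of vessel markers −3.74, −3.28, −2.06 and −2.69. Medians of detained-intron transcripts were −1.83, −2.20, −1.35 and −1.69, so female 1 showed the smallest nuclear difference in each. Medians over all genes were −0.06 to −0.04 in the 4 pairs.

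A test of fraction by sex, 2 males against 2 females, called 43 of 20959 genes (0.205%). The synaptic-over-nuclear value was lower in males for 40 of them (0.191%) and higher in males for 3 (0.0143%). Neat1 (−1.51, adjusted p = 0.00334), Adgrl4 (−1.73, adjusted p = 0.000499), the blood-brain barrier transporter gene Abcb1a (−1.66, adjusted p = 0.000499), Cldn5 (−1.21, adjusted p = 0.0201) and Ttr (−1.75, adjusted p = 0.00317) were among them, as male minus female log2 values. The call count moved to 40 without male 1, 89 without male 2, 62 without female 1 and 542 without female 2, and to 0 without the block. Each fit without an animal leaves 1 animal in a sex, which is assumed to vary like the other sex. Without male 1, Cldn5 and Ttr missed the threshold (adjusted p = 0.887 and 0.236). With DESeq2 Neat1 and Ttr missed the threshold (adjusted p = 0.744 for Ttr), and with RLE scaling Cldn5 did (adjusted p = 0.0653). With 2 animals a sex, a difference between sexes and one between single animals cannot be told apart.

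The same comparison in mutants of the conditional line gave nearly the same values. In their 8 pairs, which share no library with the WT pairs, 6224 genes were synaptic (34.3%) and 6741 nuclear (37.1%) of 18167, or 71.4% called. Across 10608 genes at an average log2 CPM of at least 3, the log2 fold changes correlated at r = 0.984 and rho = 0.977 with those of WT (a description across genes). Of the 8118 of these genes called in WT, 99.6% had the same sign in the mutants, whether or not called there. A test of fraction by genotype, mutant minus WT, called 0 of 20936 genes (0.0%) in edgeR with 800 at an unadjusted p under 0.05, and DESeq2 called 0 with 892. Without a filter on low counts it called 10. The 5 HET pairs include the animal with 0 Cre reads. Without it the test called 0 of 20812 genes in edgeR, with 661 at an unadjusted p under 0.05, and the remaining mutants had 6197 synaptic and 6621 nuclear calls.

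The germline line gave a similar order of genes with differences in size. Its 7 WT pairs had 6536 synaptic (35.2%) and 7490 nuclear calls (40.3%) of 18588, or 75.5%. Across 10604 genes the log2 fold changes of the 2 lines correlated at r = 0.922 and rho = 0.879. Of the 8115 of them called in the conditional-line WT pairs, 96.2% had the same sign in germline WT, whether or not called there. A test of fraction by line, conditional minus germline, called 1525 of 21203 genes (7.19%), 1003 higher (4.73%) and 522 lower (2.46%) in the conditional line. Line, instrument and batch label go together here, so that they cannot be told apart. Adding the 3 germline pairs left out for doubtful libraries (males 12M and 13M, whose synaptic libraries had a nuclear profile, and 29M) left 1 call, that of Wdfy1, and leaving out female 1 of the conditional line left 413.

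**Figure D5:**
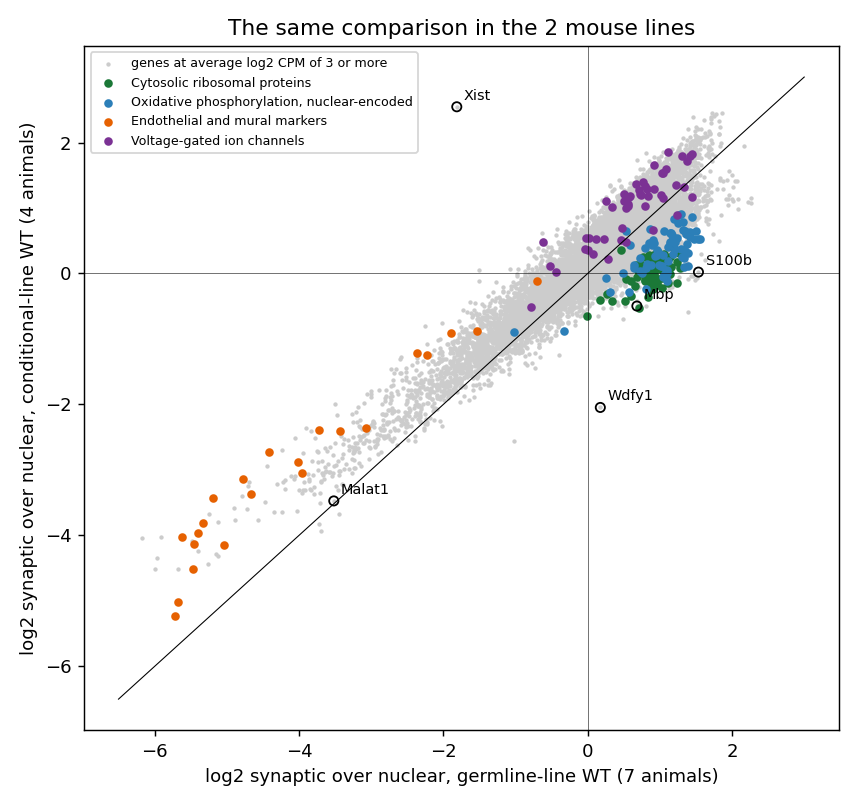
Log2 fold change, synaptic over nuclear, in 7 germline-line WT animals (x axis) and in the 4 conditional-line WT animals (y axis) for genes at an average log2 CPM of at least 3; the diagonal marks equal values. Vessel markers lie above the diagonal, nearly all ribosomal and oxidative phosphorylation genes below it, and Xist, Wdfy1, Mbp and S100b have opposite signs or lie apart.

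The gene lists differed between lines in unlike directions. Vessel markers were less nuclear in the conditional line for 15 of 24 members and more for 0 (median −3.09 against −4.54), with Emcn (1.92), Vwf (1.80) and Cdh5 (1.72) the largest named, of which Emcn missed the threshold without female 1 (adjusted p = 0.0793). Ribosomal protein genes were lower in 66 of 82 members and higher in 0 (median 0.01 against 0.89), and nuclear-encoded oxidative phosphorylation genes in 53 of 76 and 0 (median 0.37 against 1.10). For Rps21 the test gave −1.35 (adjusted p = 0.00028), and its germline log2 fold change was 1.24. Voltage-gated channels were higher in 6 of 53 and zinc finger genes in 33 of 358, with 0 lower in each. Over all genes tested, 4.73% were called higher and 2.46% lower. The median value of the test over all genes was itself above 0, at 0.157 and at 0.0743 with RLE scaling.

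Single genes differed between lines in size or direction. Xist had the largest value, 4.36 (adjusted p = 0.000719; germline log2 fold change −1.81). Wdfy1, an endosomal adaptor gene (chromosome 1, 79702262 to 79776143, minus strand), had 43.3, 49.3, 37.9 and 49.7 scaled CPM in the nuclear libraries and 11.5, 9.26, 11.7 and 11.04 in the synaptic libraries. It was nuclear in all 4 animals here (log2 fold change −2.05 ± 0.1247 (SE), adjusted p = 4.90e-09), at −1.89 in the conditional mutants and at 0.18 in germline WT (line difference −2.18, adjusted p = 3.37e-07). The astrocyte calcium-binding gene S100b had 82.5, 89.8, 85.5 and 64.8 scaled CPM in the nuclear libraries and 71.3, 119, 74.1 and 69.2 in the synaptic libraries, overlapping between fractions (log2 fold change 0.02 ± 0.106 (SE), adjusted p = 0.87), against 1.53 in germline WT (line difference −1.48, adjusted p = 0.00066). Gfap (−0.87, adjusted p = 0.0137) and Plekhb1 (−1.27, adjusted p = 0.0134) also differed, and both missed the threshold without female 1 (adjusted p = 0.0738 and 0.0635). By contrast Mbp, at 0.68 in germline WT, did not pass this test (line difference −1.14, adjusted p = 0.121).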

How the data were processed

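The authors deposited raw counts per gene for poly(A) RNA of cortical fractions, made with STAR 2.5.4b and featureCounts 2.0.0 on GRCm38 (mm10), per the submitters' processing notes. The sources used here do not give the strand setting, so reads of a gene and of one that overlaps or runs antisense to it cannot be told apart. Even counts were 60.1 to 69.6% of those examined, so mates were probably counted separately and totals are in reads. Of 54838 gene IDs 54723 matched a symbol, and coordinates come from GENCODE M21. The Cre row was left out of library sizes and tests.

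Tests on these counts used glmQLFTest of edgeR 4.0.16 under R 4.3.3 (with limma 3.58.1 installed), its quasi-likelihood test. It followed filterByExpr and TMM scaling, with animal as block and Benjamini-Hochberg adjustment at 0.05. Only these edgeR fits were tested on simulated data, not the alternatives, the list counts or the other checks. Standard errors were derived from F. Scaled CPM use TMM library sizes, and log2 values of single pairs a pseudocount of 0.5. With 24.7 to 41.3 M counts a library, biological spread between 4 animals limits most values. Libraries of 1 animal deviated together (correlations 0.109 to 0.465 over 10609 genes, every pair above 0.1, against −0.533 to 0.282 between animals). Deviations were taken from the mean of the 4 libraries of a fraction, which pulls values between animals down, so part of this contrast is built in. The animal numbers in the library names were taken to pair the samples. The synaptic library of female 1 correlated better with the nuclear library of female 2 (0.282) than with its own (0.109). Libraries of a group all differed beyond sampling noise (chi-square per degree of freedom at least 22.9). Left out were germline pairs 12M, 13M and 29M, and the conditional animal labelled HET in one fraction and HOM in the other.

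Groups came from titles. The members and the 31 gene lists were chosen with earlier results of these data known. Named genes followed a rule: called genes at an average log2 CPM of at least 3 with 1 sign in all pairs and an ordinary symbol (the 15 largest each way), the 3 largest called members of each list each way at a log2 CPM of at least 1, all nuclear-retained and all dendritic RNAs, the 10 most abundant RNAs of each fraction, the 8 largest of each interaction each way, and Chd8. Some genes that the rule gives are not reported here. F9, Sncg and the microRNA hosts stand outside the rule and were chosen after their values were seen. Members below the filter on low counts were not tested (ribosomal proteins 82 of 86, zinc finger genes 358 of 391, V-ATPase 20 of 24, snoRNA hosts 13 of 15, and 1 member of each of 7 other lists). Symbols of the snoRNA host list that matched no gene are not among its 15. Alternatives were DESeq2 1.42.0, RLE scaling, total counts, TMM without mitochondrial genes, voom with sample weights, no filter, no block, a spread shared by 12 pairs, each animal left out, and, added after seeing the data, male or female pairs alone, each animal left out of the sex test, and the mutants without the HET animal with 0 Cre reads. Figures were drawn with matplotlib 3.10.9.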

Additional observations from a re-analysis of the deposited data

Results flagged for a closer look

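Within groups of 4 libraries, a single library stood apart from the others in 28 of 368 sets of values tested for named genes and list sums (its gap to the nearest library passed Dixon's 95% critical value, which chance gives in about 1 in 20). Values are scaled CPM. The synaptic library of male 2 was the lowest for Mirg (3.95), Mir124a-1hg (40.2) and Adgrl4 (2.30), and the highest for Egr4 (47.7), Mobp (578), Ttr (740.0), Enpp2 (1013), S100b (119) and the choroid plexus sum (1851). Its nuclear library was highest for Enpp2 (357) and lowest for Mag (96.1). Choroid plexus genes were thus high in both libraries of male 2. The nuclear library of female 1 was highest for Syp (563), Eef1a2 (728), Ctss (45.8), the presynaptic sum (19051) and the glycolysis sum (6085), and lowest for Rps10 (4.20), Srsf11 (372) and the meningeal sum (322). Synaptic genes stood high and a splicing factor low in that library, whose pair also had the smallest nuclear differences. Its synaptic library was highest for Pkm (1171) and lowest for Slc1a3 (902). The nuclear library of female 2 was highest for Snhg14 (251) and Cacna1d (109) and lowest for Nrgn (530.4), and its synaptic library was highest for Snhg14 (110.0). Male 1 was highest for Gpr17 (61.0) and Lcn2 (59.2) in its nuclear and for Kcna1 (194) in its synaptic library.

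Some fraction differences differed between lines by the test of fraction by line (conditional minus germline, log2). Higher values in the conditional line were found for Xist (4.37) and Mirg (1.35), and for the vessel genes Emcn (1.92), Vwf (1.80), Cdh5 (1.72), Tek (1.36), Abcb1a (1.33), Col4a1 (1.24) and Adgrl4 (1.22), and for Tug1 (0.66). Lower values were found for Wdfy1 (−2.18), S100b (−1.48), Plekhb1 (−1.27), Gfap (−0.87), Pantr1 (−0.72), Nrgn (−0.69), the mitochondrial rRNA mt-Rnr2 (−0.82) and Lars2 (−1.43). The ribosomal genes Rps21 (−1.35), Rps15 (−0.92) and Rps26 (−0.70) were lower too. With all 10 germline pairs each of these except Wdfy1 missed the threshold.

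By sex (male minus female, log2) the test called Gm26917 (−2.66), Ttr (−1.75), Adgrl4 (−1.73), Abcb1a (−1.66), Neat1 (−1.51), Cldn5 (−1.21), Kcnq1ot1 (−1.18), Zfp950 (−0.90) and Lars2 (1.60). Each of the 9 lost its call without the block. Gm26917, Ttr, Neat1 and Lars2 also lost it with DESeq2, and Cldn5 and Zfp950 with RLE scaling.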

How the results depend on the processing

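The main counts, 5966 synaptic and 6558 nuclear, moved within 1.5 times under every alternative except scaling by total counts (2453 and 10511): DESeq2 gave 5790 and 6548, voom 6261 and 6903, no filter 5964 and 6944, no replicate block 5833 and 6488, and leaving out 1 animal 5380 to 6150 and 5765 to 6502. Without the block the fraction-by-sex count went from 43 to 0. That count was 22 with DESeq2, 111 without a filter and 40 to 542 with 1 animal left out. The 1525 fraction-by-line calls became 2326 with DESeq2, 413 to 924 with 1 animal left out and 1 with all 10 germline pairs. Their split of 1003 higher and 522 lower became 573 and 718 with RLE scaling and 1124 and 1202 with DESeq2. Fraction by genotype stayed at 0 except without a filter (10). The ribosomal sum (0.05) was −0.48 under total counts and −0.0031 to 0.12 with 1 animal left out. Of 153 named genes, total counts turned Tug1 (−0.18), Pantr1 (−0.14), Map2 (−0.058), Dlg4 (−0.0052), Lrrc7 (−0.25), Actb (−0.17), Rps26 (−0.12), Rps15 (−0.22) and S100b (−0.51), took the call from Arc, Nrgn, Eef2 and Ttr, and called Fmr1 (−0.68) and Rps21 (−0.68) nuclear. S100b ranged from −0.10 (without male 2) to 0.13 with 1 animal left out, with −0.0028 without female 2, and turned in the female pairs alone (−0.047), where Gm26917 turned too (0.039). Lars2 (−0.08) turned with voom (0.11), without the block (0.087), and in the male pairs alone (0.74), and ranged from −0.43 to 0.44 (without female 1) with 1 animal left out. The cause of these was not tested. Of the 31 list medians 29 moved by more than their spread under total counts. In the 2 female pairs alone 12 named genes missed the threshold, Mbp among them, and in the 2 male pairs 0. The depth of 24.7 to 41.3 M counts leaves genes under about 1 CPM with few reads.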

Other observations

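Lars2, the gene of a mitochondrial leucyl-tRNA synthetase, had 1285, 934, 1086 and 1719 scaled CPM in the nuclear libraries and 2450.5, 1289.9, 347 and 1528 in the synaptic libraries (log2 fold change −0.08 ± 0.282 (SE), adjusted p = 0.816). The synaptic library was higher than the nuclear one in both males and lower in both females, by little in female 2. The call of fraction by sex (1.60, adjusted p = 0.00451) was lost with DESeq2 (adjusted p = 0.936), without the block, and without male 1 (adjusted p = 0.172). The mitochondrial ribosomal RNA mt-Rnr2 was synaptic in all animals (log2 fold change 1.14 ± 0.1002 (SE), adjusted p = 1.58e-07).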
